A study of Mus musculus with 29 samples.

Results

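The 9 mouse genes Mtor, Igf1r, Fgfr3, Smarca5, Ago2, Bmpr2, Trib2, Ctdspl and Mtmr3 were followed as canonical targets of the miR-99 family in 3 experiments in which miR-99b-5p was inhibited. They were chosen by symbol as described targets, with no threshold on their values, and all 9 were found among the 48709 genes of the count tables. The question was whether any of their mRNAs increased when miR-99b-5p was inhibited. No target passed as an increase in any experiment. Of the 27 log2 fold changes (log2FC), 21 were below 0 and 6 above 0. Of all genes tested, 49.4% were below 0 in the prefrontal cortex, 48.4% in microglia and 48.4% in the co-cultures. In the longest of 4 groups of genes by exon length, with 7 of the 9 targets, these shares were 58.85%, 59.1% and 69.2%. The 1 value that passed its threshold was a decrease, that of Ago2 in the co-cultures, where 0.556% of all genes passed downwards. This call was lost in some alternative fits, such as that with the dependence on gene length removed. Values of the co-cultures come from treated and untreated cells together, since only the microglia there were treated.

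All libraries were made from polyadenylated RNA of Mus musculus. In each experiment an LNA inhibitor of miR-99b-5p packed in lipid nanoparticles (anti-miR-99b) was compared with a scramble sequence delivered the same way (sc-control). An LNA is an oligonucleotide with locked sugars that binds its miRNA tightly. In the first experiment, C57BL/6J mice aged 3 months received either agent by injection into the prefrontal cortex (PFC), and the tissue was taken on the fifth day (3 libraries each). In the second, primary microglia, the resident immune cells of the brain, were grown from CD1 pups at postnatal day 1 and received either agent (4 libraries each). In the third, such treated microglia were added to cortical neurons from CD1 embryos at embryonic day 17.5 that had themselves received neither agent, and RNA was taken from the mixed cells (7 anti-miR-99b and 8 sc-control libraries). The mice carried no engineered allele. Whether the libraries of a culture group came from separate litters was not stated in the labels, so p-values measure the spread between these libraries, which may be technical in part.

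A miRNA guides an Argonaute protein to mRNAs whose 3′ UTR pairs with its seed, bases 2 to 8, and the mRNA is then translated less and degraded faster. Release of targets on inhibition of the miRNA is called derepression. The miR-99 family is best known as a regulator of growth signalling through mTOR and the IGF1 and FGF receptors. The seed and its matches in the targets are shown first because pairing with the seed is what makes a gene a target of the whole family. The sequences of the family, from RefSeq (GRCm38.p6), carry the seed in capitals:

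mmu-miR-99b-5p: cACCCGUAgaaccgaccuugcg
mmu-miR-99a-5p: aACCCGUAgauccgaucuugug
mmu-miR-100-5p: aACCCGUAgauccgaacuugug

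These were the only 3 of 1738 mature mouse miRNAs in the table that held this seed. miR-99b-5p lies at chr17:17830194-17830215 on the plus strand. Counted from 1 at the 5′ end, with the base of miR-99b-5p first, miR-99a-5p differs from it by C1A, A11U, C16U and C21U, and miR-100-5p by C1A, A11U, C16A and C21U, all outside the seed. The inhibitor was designed against miR-99b-5p, and its own sequence is not given here. Whether it also bound the other two members was not tested.

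The 3′ UTRs of the coding transcripts of GENCODE M21 (GRCm38, the same assembly as mm10) were searched on the transcribed strand for matches to the seed. The types were TACGGGTA (8mer, bases 2 to 8 plus an A opposite base 1), TACGGGT (7mer-m8, bases 2 to 8), ACGGGTA (7mer-A1, bases 2 to 7 plus the A) and ACGGGT (6mer), each gene being counted under its best type. Igf1r, Fgfr3 and Ctdspl held an 8mer, a type held by 0.25% of the 21609 coding genes searched. Mtor, Smarca5, Ago2, Trib2 and Mtmr3 held a 7mer-m8 (0.902% of coding genes). Bmpr2 held no match to bases 2 to 8, only a 7mer-A1 (0.819%), so that it differed from the other 8 in the kind of site. Sites of 5 targets are given with the match in capitals, Fgfr3 as an example of an 8mer, Mtor as the best-known target, and Ago2, Trib2 and Bmpr2 because most of the differences described below concern them:

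Fgfr3: agacaaatTACGGGTAcctgaagg
Mtor: ctgagaaaTACGGGTtttgactta
Ago2: ctaaagaaTACGGGTctgtggtga
Trib2: acttcaatTACGGGTcaacgggat
Bmpr2: gtcttgttaACGGGTAtcttttgt

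In mm10 these windows lie at chr5:33736041-33736064 (plus strand, Fgfr3), chr4:148557141-148557164 (plus, Mtor), chr15:73106125-73106148 (minus, Ago2), chr12:15792402-15792425 (minus, Trib2) and chr1:59877205-59877228 (plus, Bmpr2), each within the last part of the gene, in its 3′ UTR. The ACGGGT within each site began at base 290 of the 3′ UTR in Mtor, 490 in Fgfr3, 769 in Ago2, 1192 in Trib2 and 6729 in Bmpr2. The Mtor site was in 1 of its 2 coding transcripts and the Trib2 site in 1 of 2, whereas 6 of the 7 coding transcripts of Fgfr3 held theirs. Mtor, Igf1r and Smarca5 also matched at least 6 seed bases in their coding sequence. The longest 3′ UTR was 11064 bases in Ago2, 8529 in Bmpr2 and 7267 in Igf1r, against a median of 913 over all coding genes searched and 2556 over the 9 targets.

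Total counts ranged from 21324156 to 37901110 per library (median 28450652). Markers of the labelled cells were high: the summed level of 10 microglia markers was 12070 to 12900 CPM (read counts scaled to the same library total) in the microglia cultures, and that of 10 neuron markers was 8073 to 8390 in the co-cultures and 9346 to 10160 in the PFC. Other cell types were also seen. The sum of 10 astrocyte markers was 2934 to 3217 CPM in the co-cultures, 669.1 to 750.4 in the microglia cultures and 5349 to 6137 in the PFC. That of 5 markers of oligodendrocyte precursors was 573.2 to 656.7 in the co-cultures. Levels in a culture are therefore not those of 1 cell type. In the co-cultures the microglia markers summed to only 131.0 to 186.9 CPM. Their median under sc-control was 1.20% of that in the microglia cultures, so that the levels of the targets in the treated cells of a co-culture cannot be told apart from those in the untreated ones. The mature miRNA is not captured by these libraries and its inhibition was not measured here. Of the miR-99 family loci, Mir99b, Mir99a and Mir100 were at most 0.118 CPM in any library, and Mirlet7e and Mir125a, which share the miR-99b cluster, had no count in any library. The spliced genes of the host list, Mir99ahg and Spaca6, passed the filter on low counts. Whether the transcript of either carries miR-99b-5p was not examined. Mir99ahg was listed at 3.28 ± 0.45 CPM under anti-miR-99b and 3.09 ± 0.55 under sc-control in the PFC (SD, n = 3 each), 5.71 ± 0.74 and 7.02 ± 0.65 in microglia (n = 4 each) and 4.66 ± 0.31 and 4.73 ± 0.76 in co-cultures (n = 7 and 8). Spaca6, the gene next to the miR-99b cluster, was 40.9 ± 1.7 and 37.0 ± 1.4 CPM in the PFC (n = 3 each), 13.3 ± 0.74 and 15.2 ± 1.4 in microglia (n = 4 each) and 9.18 ± 0.60 and 9.12 ± 0.57 in co-cultures (n = 7 and 8). Neither passed a threshold. In the PFC Spaca6 was 39.1 to 42.4 CPM under anti-miR-99b against 36.1 to 38.6 under sc-control (log2FC 0.14, SE 0.07, adjusted p = 0.660). In microglia all 4 treated libraries were below the control mean for both, with log2FC -0.29 for Mir99ahg (SE 0.09, adjusted p = 0.462) and -0.20 for Spaca6 (SE 0.07, adjusted p = 0.467). There both passed as decreases with the replicate block (-0.41, adjusted p = 0.0929, and -0.33, 0.0297), and Spaca6 also with block and length trend removed (0.0605) and without sc-control 2 (0.0835).

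All 9 targets were expressed in all 3 systems and passed the filter in each. Levels between genes are given per length, as RPKM (CPM divided by the exon length in kilobases) under sc-control. In the PFC the order ran from Mtmr3, a myotubularin phosphatase of phosphoinositides (15.7 ± 0.57 RPKM, SD, n = 3), over the FGF receptor Fgfr3 (13.1 ± 0.56), the growth kinase Mtor (12.8 ± 0.72) and the pseudokinase Trib2 (12.2 ± 2.8) to the chromatin remodelling ATPase Smarca5 (2.74 ± 0.36). The SDs of Fgfr3, Mtor and Trib2 overlapped, so that their order is not settled. In microglia Mtmr3 was again the most abundant (19.8 ± 0.32, n = 4), followed by the Argonaute Ago2 (12.3 ± 0.83), and Fgfr3 was the least (1.34 ± 0.10). In the co-cultures Trib2 ranked first (28.1 ± 0.63, n = 8), then Mtmr3 (17.6 ± 0.27), Mtor (14.7 ± 0.30), the BMP receptor Bmpr2 (13.7 ± 0.87) and Ago2 (13.5 ± 0.20), and the phosphatase-like Ctdspl (3.52 ± 0.05) ranked last. Igf1r, the receptor for IGF1, stood at 4.49 ± 0.13 in the PFC, 2.54 ± 0.21 in microglia and 4.01 ± 0.17 in the co-cultures.

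Between systems the contrasts were large for 3 of the targets. Fgfr3 was 9.91-fold higher in the PFC than in microglia (log2 difference 3.31, SE 0.06, adjusted p = 1.44e-26). Trib2 was 7.43-fold lower in microglia than in the co-cultures (log2 difference -2.89, SE 0.08, adjusted p = 1.64e-21). Smarca5 ran the other way and was 2.73-fold lower in the PFC than in microglia (log2 difference -1.45, SE 0.07, adjusted p = 5.56e-17). Bmpr2 did not pass between the PFC and microglia (log2 difference -0.01, 95% interval -0.15 to 0.13, adjusted p = 0.913), and the other 26 contrasts of the 9 targets did. Such contrasts are common: 91.7% of all genes tested passed between PFC and microglia, 84% between PFC and co-cultures and 90.6% between microglia and co-cultures. Strain, age, culture and tissue differ together between the systems and cannot be told apart. With the dependence on gene length removed, the differences of Igf1r (from -0.64 to 0.13) and Ago2 (from -0.12 to 0.57) between microglia and co-cultures changed sign. The same removal ended the calls of Mtor in all 3 contrasts (adjusted p = 0.792, 0.401 and 0.552), of Mtmr3 between PFC and co-cultures (-0.05, 0.204) and of Bmpr2 between microglia and co-cultures (0.03, 0.463). With it Bmpr2 passed between PFC and microglia (-0.57, 1.05e-11). The Ago2 contrast between microglia and co-cultures was lost without microglia sc-control 2 (-0.08, adjusted p = 0.0546).

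**Figure D1:**
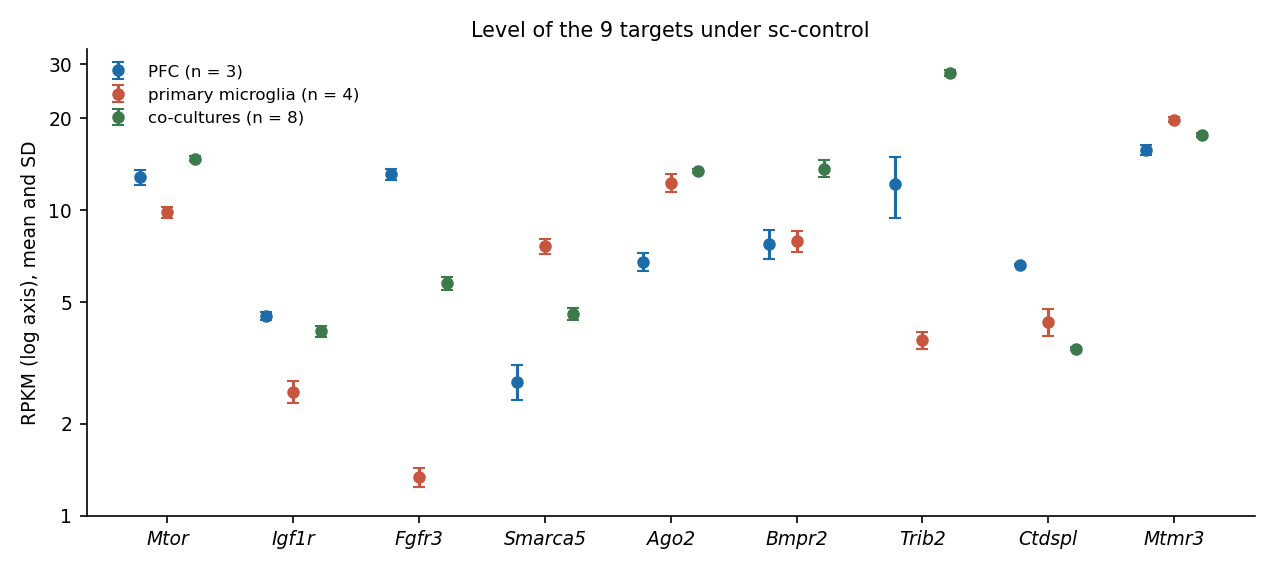
Mean RPKM with SD of each target in the sc-control libraries of the PFC (n = 3), primary microglia (n = 4) and co-cultures (n = 8), on a log axis. Fgfr3 spans from 1.34 in microglia to 13.1 in the PFC and Trib2 from 3.75 in microglia to 28.1 in the co-cultures, while Mtmr3 stays between 15.7 and 19.8.

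In the PFC no target passed the threshold (adjusted p under 0.1 and log2FC beyond 0.2) in either direction by edgeR or by DESeq2. Among all 17364 genes tested, 0.0864% passed upwards and 0% downwards. The median log2FC of the 9 was -0.06, beside 0.00 over all genes tested, with 6 of the 9 values below 0 (49.4% of all genes). At an unadjusted p under 0.05 there were 0 higher and 2 lower, Trib2 and Ago2, where 5.17% of all genes were higher and 2.47% lower. The highest upper limit of a 95% interval was that of Fgfr3, an increase of 16.3%.

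Of the growth receptors and the kinase below them, none moved beyond its spread in the PFC. Mtor, the catalytic subunit of both mTOR complexes, was 149.9, 135.3 and 131.9 CPM under anti-miR-99b and 136.7, 144.5 and 130.9 under sc-control. The groups overlapped fully (log2FC 0.02, SE 0.07, 95% interval -0.15 to 0.18). Igf1r was 72.9 to 82.7 CPM against 76.9 to 81.9 (log2FC -0.04, SE 0.07). Fgfr3, an FGF receptor of astrocytes in the brain, was 101.9 to 109.5 CPM against 96.8 to 104.2, with all 3 treated libraries above the control mean but 2 of them below the highest control (log2FC 0.07, SE 0.07, adjusted p = 0.781). Bmpr2, the type II receptor for bone morphogenetic proteins, spread widely, from 109.2 to 155.0 CPM against 132.1 to 165.5 (log2FC -0.20, SE 0.13).

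Trib2, a pseudokinase scaffold that brings ubiquitin ligases to its partners, had the largest difference of the set in the PFC. It was 34.2, 44.5 and 40.9 CPM under anti-miR-99b and 61.0, 41.3 and 66.0 under sc-control. The treated libraries all lay below the control mean, but 1 control library fell within their range. The log2FC was -0.49 (SE 0.16, 95% interval -0.85 to -0.14, adjusted p = 0.573) and did not pass, with an estimate of -28.9%. Without that control library the log2FC was -0.67, adjusted p = 0.193. Within sequencing lane 6, which held 2 libraries of each group, the means were 39.4 and 51.1 CPM, and within lane 7, with 1 each, 40.9 and 66.0. It passed in 2 of the alternatives, with 1 RUVs factor (adjusted p = 0.0987) and without the filter on low counts (0.000338). With the replicate block it was -0.23 (0.431), and with block and length trend removed -0.24 (0.327).

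Ago2, the Argonaute that carries miRNAs and can cut their targets, was 79.8, 85.8 and 98.1 CPM under anti-miR-99b in the PFC and 106.4, 92.6 and 104.2 under sc-control. The highest treated library stood above the lowest control (log2FC -0.20, SE 0.09, 95% interval -0.40 to -0.00, adjusted p = 0.649). Smarca5, the ATPase of ISWI remodelling complexes, was 16.95 to 22.99 CPM against 19.2 to 25.2 (log2FC -0.18, SE 0.13). The levels of the 2 phosphatases overlapped too. Ctdspl was 35.8 to 37.5 CPM against 36.3 to 36.7 (log2FC 0.00, SE 0.06) and Mtmr3 was 118.5 to 126.9 against 122.4 to 129.6 (log2FC -0.06, SE 0.06). With 3 libraries each, an exact permutation test of a single gene cannot go below p = 0.1.

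In primary microglia, the cells that received the inhibitor directly, no target passed (adjusted p under 0.1 and log2FC beyond 0.1) by either tool. Of the 14953 genes tested, 0.435% passed upwards and 0.0535% downwards. The median log2FC of the targets was -0.04, beside 0.00 over all genes, with 7 of the 9 values below 0 (48.4% of all genes). At an unadjusted p under 0.05, 0 were higher and 1 was lower, Ago2, beside 3.4% and 3.04% of all genes. Every upper limit of a 95% interval was at or below an increase of 10.9%, that of Trib2.

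Mtor was 90.2, 83.9, 88.1 and 87.4 CPM under anti-miR-99b in microglia and 88.3, 90.6, 93.4 and 85.4 under sc-control. The groups overlapped, and an increase of more than 2.62% lay outside the 95% interval of the main fit (log2FC -0.03, SE 0.03). The log2FC of Mtor ran from -0.10 to -0.02 under the alternatives and from -0.06 to -0.01 with 1 library left out. Igf1r was 36.3 to 38.5 CPM against 34.6 to 40.5 (log2FC -0.05, SE 0.04). Fgfr3, which was lower in these cultures than in the other systems, was 7.75 to 9.16 against 8.01 to 9.30 (log2FC -0.03, SE 0.07). Bmpr2 was 126.2, 118.5, 124.0 and 122.8 CPM under anti-miR-99b and 115.8, 132.1, 134.1 and 130.0 under sc-control. Here 3 of the 4 controls lay above every treated library and the fourth below them all (log2FC -0.06, SE 0.04, adjusted p = 0.868).

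Ago2 in microglia was 152.1, 145.9, 147.2 and 142.8 CPM under anti-miR-99b and 144.4, 157.7, 165.8 and 152.6 under sc-control. All 4 treated libraries were below the control mean, and 1 control was near the bottom of the treated range (log2FC -0.08, SE 0.04, adjusted p = 0.738). The lowest control was number 2 for both Ago2 and Bmpr2, and without it Ago2 (log2FC -0.11, adjusted p = 0.052) and Bmpr2 (-0.10, 0.0442) passed as decreases. Trib2 was 12.5 to 15.9 CPM against 14.0 to 15.3 (log2FC 0.01, SE 0.07). Smarca5 was 49.8 to 54.2 against 51.2 to 56.2 (log2FC -0.04, SE 0.04), Ctdspl 18.9 ± 0.81 against 20.1 ± 1.7 (SD, n = 4 each; log2FC -0.10, SE 0.06) and Mtmr3 133.2 to 138.3 against 129.0 to 140.1 (log2FC 0.01, SE 0.03).

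In the co-cultures 1 target passed (adjusted p under 0.05 and log2FC beyond 0.1), Ago2, as a decrease, by edgeR and by DESeq2. None passed upwards by either tool. Of the 16193 genes tested, 0.846% passed upwards and 0.556% downwards. The median log2FC of the targets was -0.04, beside 0.00 over all genes, with 8 of the 9 values below 0 (48.4% of all genes). At an unadjusted p under 0.05, 0 were higher and 4 were lower (Ago2, Bmpr2, Ctdspl and Igf1r), beside 6.4% and 6.81% of all genes. Every upper limit of a 95% interval in the mixed RNA was at or below an increase of 8.71%, that of Smarca5.

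Ago2 in the 7 anti-miR-99b co-cultures had a lowest, median and highest level of 168.3, 180.3 and 190.2 CPM, and in the 8 sc-control co-cultures of 190.6, 195.7 and 198.4. Every treated library was below every control, a separation that 0.278% of the genes tested showed in this direction. The log2FC was -0.14 (SE 0.03, 95% interval -0.19 to -0.08, adjusted p = 0.00594) and Ago2 decreased by 8.97%. Within the 4 lanes the log2 ratios of the means were -0.12 in lane 4, -0.13 in lane 5, -0.21 in lane 6, which held 1 library of each group, and -0.11 in lane 7. The call was kept whichever library was left out (adjusted p 0.00182 to 0.0200). It was lost when the dependence on gene length was removed (log2FC -0.09, adjusted p = 0.136), with the replicate block (-0.10, 0.183) and with both (-0.06, 0.830). Chrac1, on the opposite strand, shares 219 exon bases with Ago2, and since the strand setting of the counting is not given in the sources used here, reads in them cannot be assigned; Chrac1 itself was 13.4 ± 0.46 and 12.9 ± 0.75 CPM and did not pass.

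Bmpr2 in the co-cultures ran from 219.4 over 227.3 to 264.0 CPM under anti-miR-99b and from 230.5 over 252.6 to 281.3 under sc-control (lowest, median, highest). The groups overlapped, with 6 of 7 treated libraries below the control mean (log2FC -0.12, SE 0.04, 95% interval -0.20 to -0.04, adjusted p = 0.137). It passed without anti-miR-99b co-culture 7 (log2FC -0.15, adjusted p = 0.0173), without the filter on low counts (0.0376) and with the RUVs factor (0.00109). With the length trend removed it was -0.06 (0.463), and with block and length trend removed -0.08 (0.596). Ctdspl ran from 16.9 over 17.8 to 18.7 CPM against 18.4 over 18.9 to 19.2, with all 7 treated libraries below the control mean (log2FC -0.10, SE 0.03, adjusted p = 0.154). Igf1r ran from 64.1 over 66.2 to 69.9 CPM against 65.2 over 69.6 to 73.4 (log2FC -0.07, SE 0.03, adjusted p = 0.298).

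The remaining targets did not pass in the co-cultures, and their groups overlapped. Mtor was 141.3 to 159.2 CPM against 149.8 to 158.9, with 3 of 7 treated libraries below every control (log2FC -0.04, SE 0.02, adjusted p = 0.469). In the mixed RNA an increase of Mtor of more than 0.482% lay outside the 95% interval. The median sum of microglia markers there was 1.20% of that in microglia cultures under sc-control. This bound therefore cannot decide on Mtor in the treated cells. It is also the bound of the main fit only, since under the alternatives the log2FC of Mtor ran from -0.049 to -0.0011. Trib2 was 118.7 to 128.9 against 121.8 to 129.6 (log2FC -0.03, SE 0.02), Fgfr3 40.4 to 45.0 against 40.1 to 45.1 (log2FC -0.00, SE 0.03) and Mtmr3 128.7 to 141.3 against 135.4 to 142.5, with 5 of 7 treated libraries below every control (log2FC -0.04, SE 0.02). Smarca5 was the 1 target with a value above 0, at 34.7 to 41.5 CPM against 34.8 to 39.2, reaching above the highest control (log2FC 0.05, SE 0.04, adjusted p = 0.631).

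**Figure D2:**
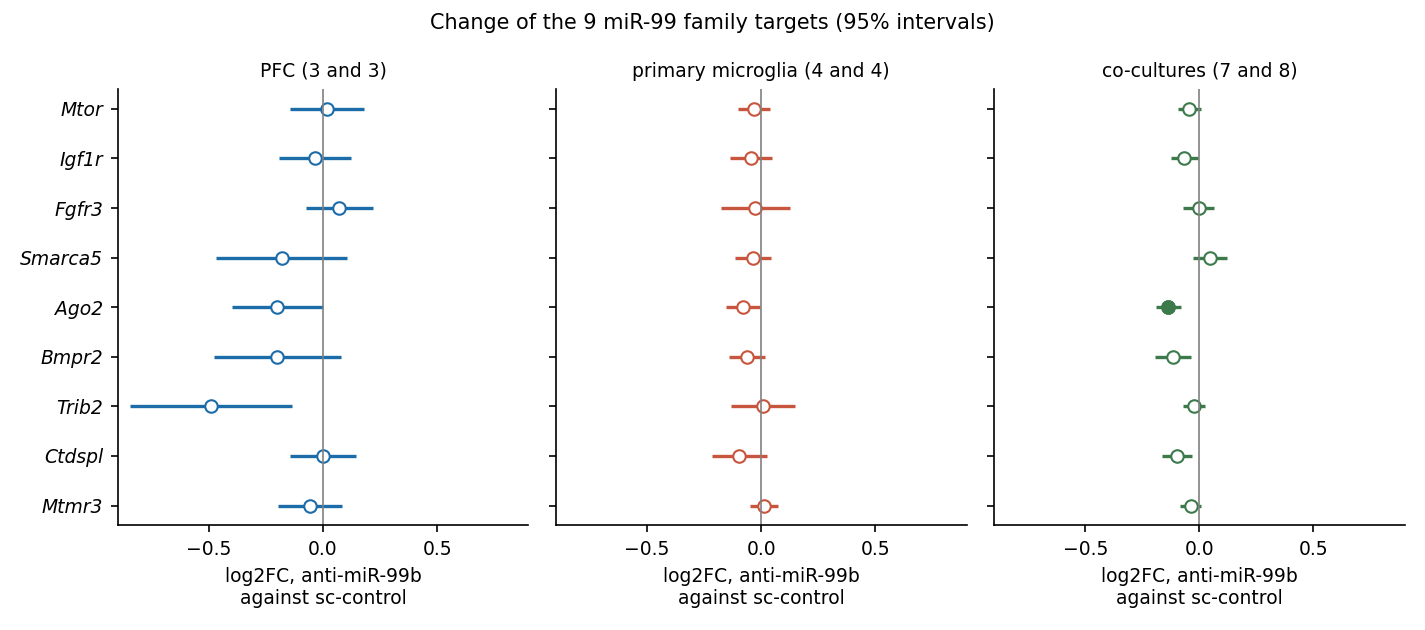
log2FC of each target, anti-miR-99b against sc-control, with its 95% interval, in the PFC (3 and 3 libraries), primary microglia (4 and 4) and co-cultures (7 and 8). A filled point passed the threshold of its experiment, which only Ago2 in the co-cultures did, at -0.14. No interval lies wholly above 0 and 7 of the 27 lie wholly below it. At an unadjusted p under 0.05, 5.17% of all genes were higher and 2.47% lower in the PFC, 3.4% and 3.04% in microglia, and 6.4% and 6.81% in the co-cultures.

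**Figure D3:**
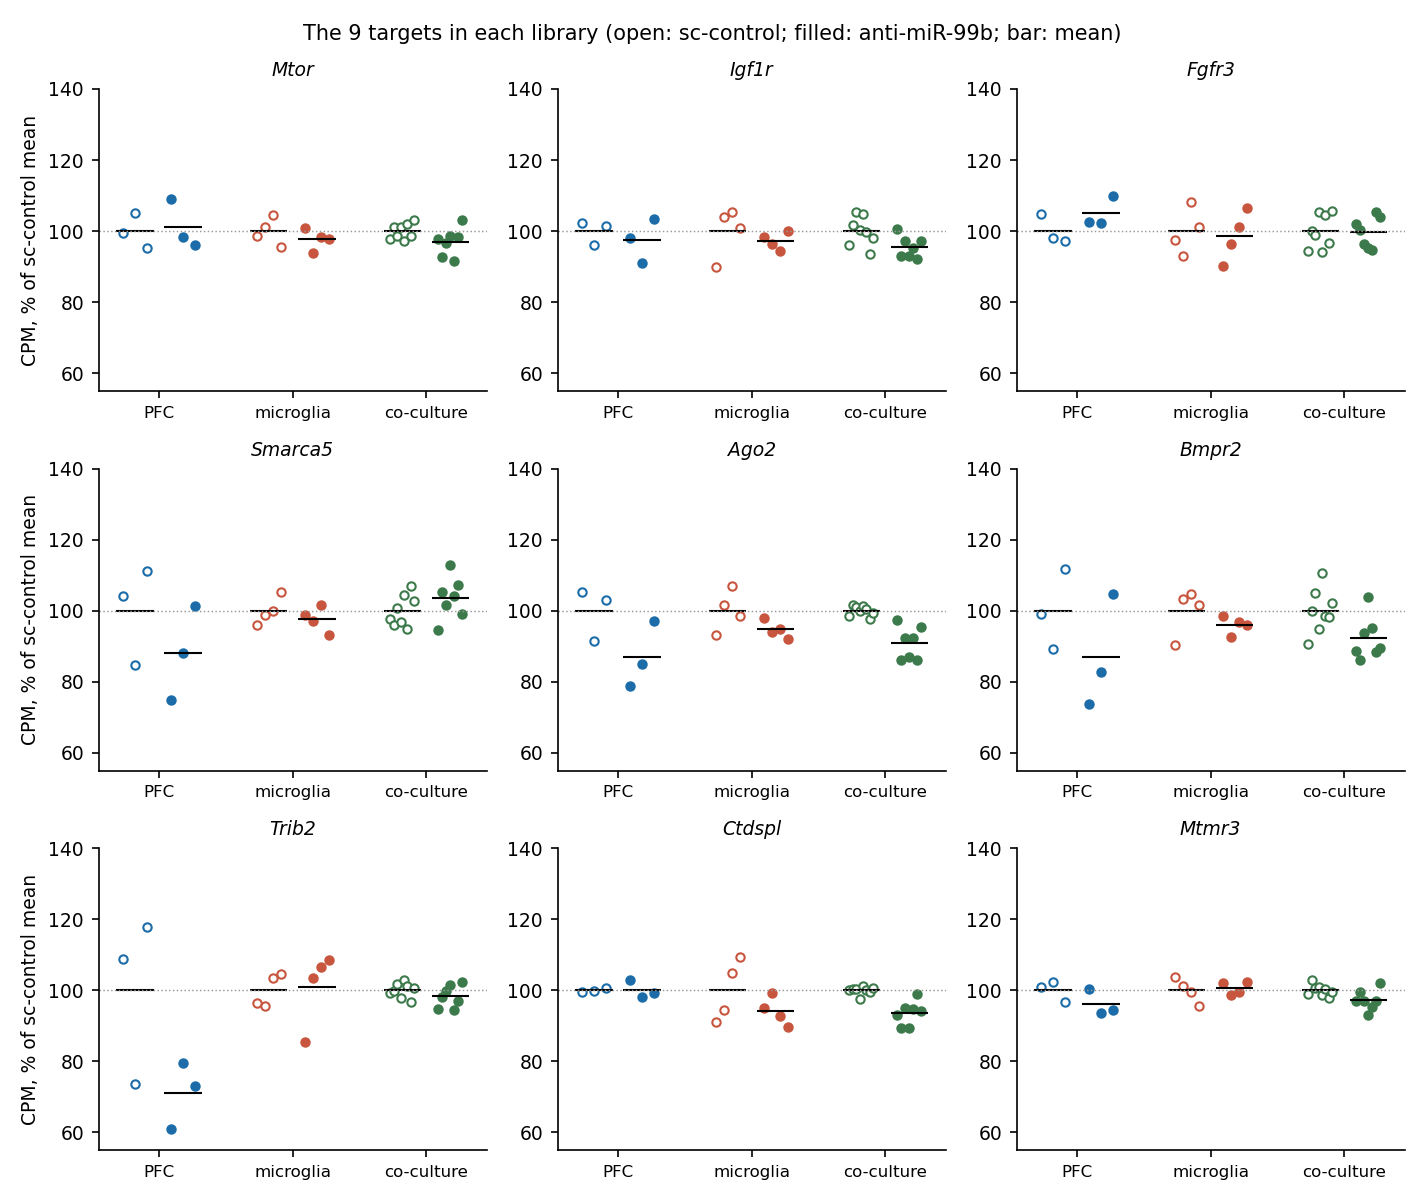
CPM of each target in every library, as a percentage of the sc-control mean of its experiment, with open points for sc-control, filled points for anti-miR-99b and bars for group means. The axis runs from 55% to 140%. Ago2 in the co-cultures is the one panel where filled and open points separate completely, and Trib2 in the PFC shows the lowest filled points beside 1 low control.

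Of the 9 targets, 3 had log2FC below 0 in each of the 3 experiments, Igf1r, Ago2 and Bmpr2, and none was above 0 in each. The experiments share no libraries. Differences of the effect between experiments were tested in 1 model of all 29 libraries. Trib2 passed between the PFC and the co-cultures (difference of log2FC -0.46, SE 0.11, 95% interval -0.68 to -0.24, adjusted p = 0.0301), where 0.791% of 18963 genes passed. Against microglia its difference was -0.52 (SE 0.14, adjusted p = 0.0819). The first of these was lost when any 1 of 3 PFC libraries was left out, anti-miR-99b 1 (adjusted p = 0.166) and sc-control 2 (0.207) and 4 (0.118), or any 1 of 5 co-culture libraries, anti-miR-99b 3 and 5 and sc-control 1, 5 and 11 (0.0505 to 0.053). No other target passed in any of the 3 contrasts, in which 0.469% of genes passed between PFC and microglia and 0.0844% between microglia and co-cultures. For Ago2 the effect in the PFC minus that in the co-cultures was -0.06 (95% interval -0.21 to 0.08).

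Length moved with the results. Of the 9 targets 7 were in the longest of 4 equal groups of genes by exon length (from 6407 bases in the PFC, 6689 in microglia and 6595 in the co-cultures), and Trib2 and Ctdspl were in the next. In the co-cultures the median log2FC went from 0.03 in the shortest group to -0.02 in the longest, where 69.2% of genes were below 0 and which held 82 of the 90 genes that passed downwards. Of the 661 genes with a 3′ UTR of at least 5000 bases, as Ago2, Bmpr2 and Igf1r have, 78.4% were below 0 in the co-cultures and 32 passed downwards against 1 upwards. In the PFC the medians went from 0.04 in the shortest group to -0.03 in the longest, and 81.9% of the genes with such long 3′ UTRs were below 0. In microglia the medians were 0.01 and -0.01. With the length trend removed the log2FC of Ago2 was -0.09 in the co-cultures, as given above. The microglia markers also differed between the co-culture groups, with summed levels of 161.0 to 186.9 CPM under anti-miR-99b and 131.0 to 165.9 under sc-control and 5 of the 10 past the threshold upwards. The part of these markers in the target levels was not tested. In the PFC the marker sums were 686.6 to 748.4 against 522.0 to 702.7 CPM for microglia and 9346 to 9524 against 9521 to 10160 for neurons, with none of either past the threshold by edgeR. At an unadjusted p under 0.05, 5 microglia and 0 neuron markers were higher, and DESeq2 called 1 of the microglia markers. In the microglia cultures 1 of 6 oligodendrocyte markers tested passed as a decrease by both tools (0.0535% of all genes by edgeR). At an unadjusted p under 0.05, 4 of these 6, 1 of 10 neuron and 1 of 10 astrocyte markers were lower there (3.04% of all genes). Higher were 2 of 4 fibroblast markers (3.4%) and 0 of 10 microglia markers. In bulk RNA, fewer cells of a type and less RNA per cell cannot be told apart.

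**Figure D4:**
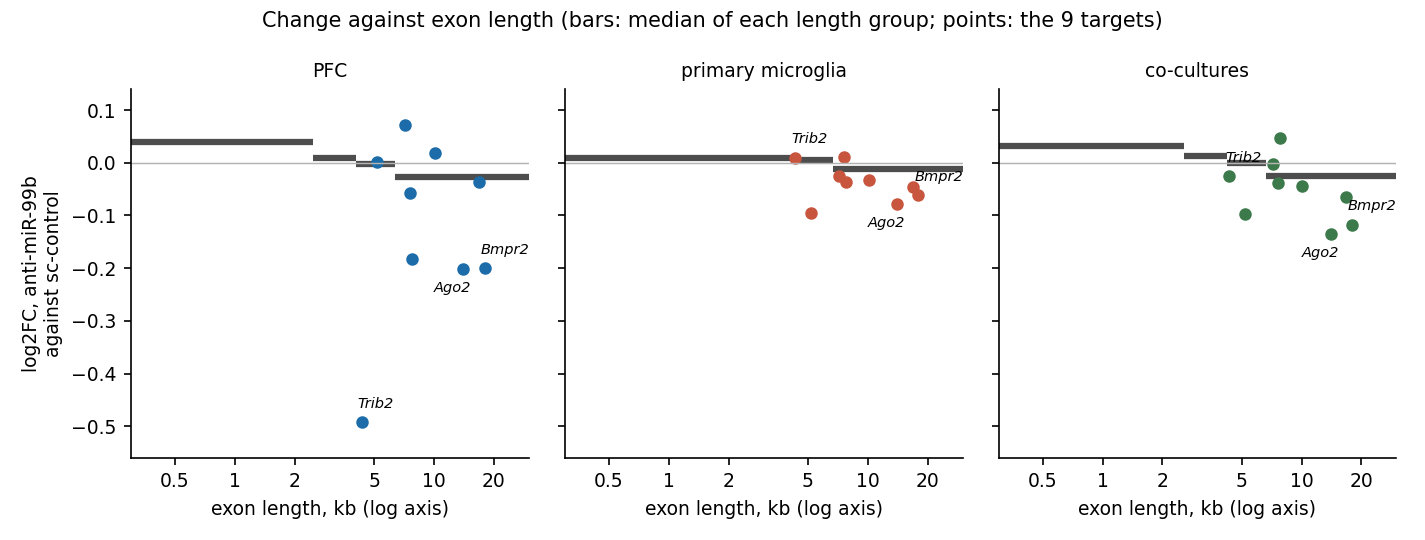
log2FC of each target (points) against its exon length on a log axis, with bars for the median log2FC of each of the 4 length groups, cut off at 0.3 and 30 kb. The medians of the longest group lie at -0.03 in the PFC, -0.01 in microglia and -0.02 in the co-cultures, and the long genes Ago2 and Bmpr2 lie below them in each panel.

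The genes with the same seed match were described as a group, with no test of the group. In the PFC 215 tested genes held an 8mer or 7mer-m8 in the 3′ UTR. Their median log2FC was -0.02, beside 0.00 over all coding genes searched, and edgeR called 0 of them in either direction (8 higher and 11 lower at an unadjusted p under 0.05, and 1 higher by DESeq2). Of the 14908 coding genes tested there, 14 were called higher and 0 lower, and 814 and 394 were so at an unadjusted p under 0.05. In microglia 201 such genes had a median of -0.01 and again 0 calls (7 higher and 8 lower at an unadjusted p under 0.05, and 0 by DESeq2), beside 64 and 6 called and 481 and 386 at an unadjusted p under 0.05 of 13268 coding genes. In the co-cultures 211 had a median of -0.01, with 2 called higher and 4 lower, where 0.846% and 0.556% of all genes passed. At an unadjusted p under 0.05 there were 10 higher and 29 lower, beside 965 and 983 of 14146 coding genes. The 2 called higher were the cytokine gene Tnf (log2FC 0.46, SE 0.07, adjusted p = 0.00117) and Plek, the pleckstrin gene of blood cells (0.21, SE 0.05, 0.0163). The 4 called lower were Ago2, the diacylglycerol kinase Dgkh (-0.22, SE 0.04, 0.00461), the helicase Helz (-0.14, SE 0.03, 0.0317) and the neurotrophin receptor Ntrk3 (-0.12, SE 0.03, 0.0346). These 5 genes besides Ago2 were named after their values were seen. Genes with an 8mer alone had medians of -0.02, -0.01 and -0.01 in the PFC, microglia and co-cultures, over 44, 40 and 44 genes.

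**Figure D5:**
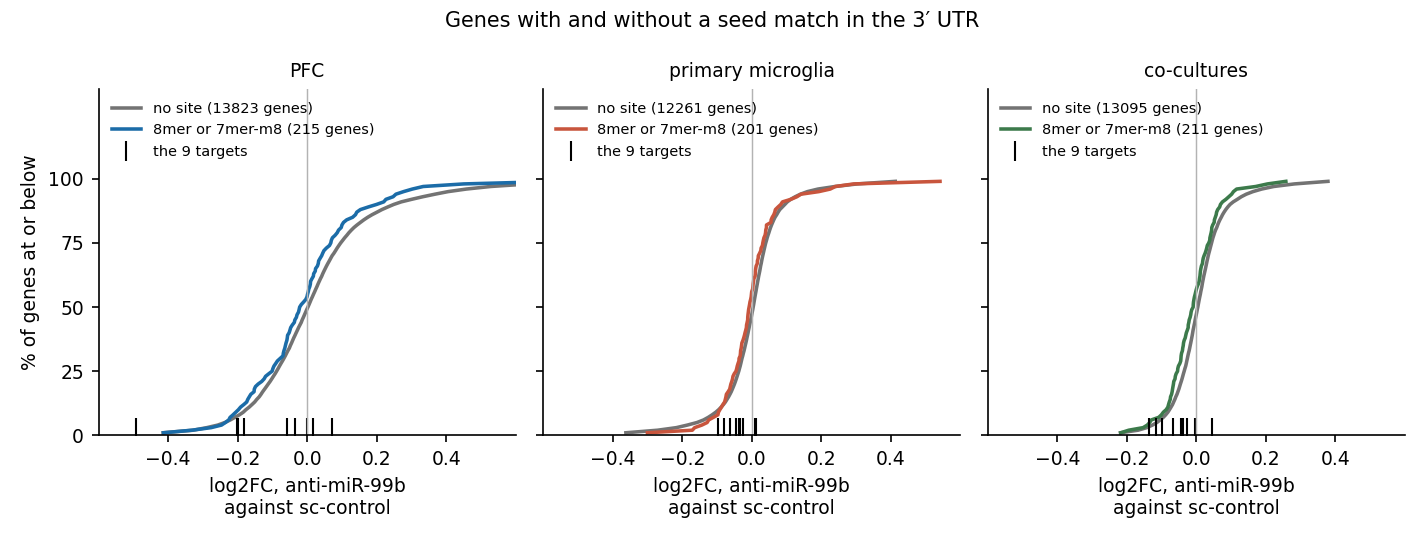
Percentage of genes at or below each log2FC, from the 1st to the 99th percentile, for genes with an 8mer or 7mer-m8 seed match in the 3′ UTR (coloured) and for genes with none of the 4 types (grey), with a tick for each of the 9 targets. The coloured curve lies at or slightly to the left of the grey one at the median, -0.02 against 0.00 in the PFC, -0.01 against 0.00 in microglia and -0.01 against 0.00 in the co-cultures.

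A wider list of 27 other genes described or predicted as targets of the family gave 26 tested in each experiment and 0 past the threshold by edgeR or DESeq2. At an unadjusted p under 0.05 there were 1 higher and 1 lower in the PFC, 1 higher and 0 lower in microglia, and 0 higher and 4 lower in the co-cultures. Of all genes tested, 5.17% were so higher and 2.47% lower in the PFC, 3.4% and 3.04% in microglia, and 6.4% and 6.81% in the co-cultures. Past the threshold were 0.0864% upwards and 0% downwards in the PFC, 0.435% and 0.0535% in microglia, and 0.846% and 0.556% in the co-cultures. The medians of the list were -0.06, -0.01 and -0.02, beside 0.00 over all genes.

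The genes of the pathways around the targets gave 2 calls in all. The shares of all genes to set beside the counts of these lists are those just given. Of 33 genes of the mTOR pathway, which holds the partners, activators and substrates of Mtor, none passed in any experiment by either tool, with 2 higher and 1 lower at an unadjusted p under 0.05 in the PFC, 0 and 0 in microglia and 2 and 3 in the co-cultures. None of the tested genes of IGF and insulin signalling (13 or 14), FGF signalling (14 or 16), BMP signalling (22 or 23) or ISWI chromatin remodelling (12) passed by either tool, with 0 to 3 in each direction at an unadjusted p under 0.05 for each list in each experiment. Of the 13 genes of the miRNA machinery besides Ago2, 2 passed in the co-cultures, both as decreases and by both tools, where 0.556% of all genes tested passed downwards and most of these were long. Tnrc6b, a GW182 protein that links Argonautes to the decay of mRNA, went from 139.5 ± 7.3 to 122.7 ± 3.6 CPM (SD, n = 8 and 7). All treated libraries were below all controls (log2FC -0.18, SE 0.03, adjusted p = 0.00113). The call was lost with block and length trend removed together (-0.11, adjusted p = 0.149). Ago3, a paralog of Ago2, went from 38.3 ± 1.8 to 34.7 ± 2.0 CPM (log2FC -0.14, SE 0.04, adjusted p = 0.0448). The Ago3 call was lost with the lane as a term (adjusted p = 0.140), with the length trend removed (0.264), with the replicate block (0.126), with both (0.581), and without any one of 11 libraries, anti-miR-99b 3, 5, 10, 11 and 12 and sc-control 2, 4, 5, 6, 11 and 12 (0.0507 to 0.116). In the PFC and microglia no gene of this list passed by either tool (1 higher and 0 lower, and 1 higher and 3 lower, at an unadjusted p under 0.05). Of 17 paralogs of the targets tested, Ago3 in the co-cultures was the 1 that passed in any experiment.

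Over all 29 libraries the target levels followed the 3 systems, and so did the genes with the most similar pattern among 11865 searched (Pearson's r of log2(CPM + 0.5)). Fgfr3 was most like the calcium/calmodulin kinase inhibitor Camk2n1 and the serine protease Htra1 (r = 0.998 each). Trib2 was most like Zc2hc1a and the neuronal transcription factor Mef2c (0.995 each), and Smarca5 was most like Picalm (0.996) and Ssr3 (0.995). For Mtor the nearest were Cmip (0.991) and Trio (0.988), for Igf1r Fam160a2 (0.988) and Trak1 (0.987), for Bmpr2 Relch (0.989) and Ankrd12 (0.987), for Ctdspl Pi4ka and Gpr37l1 (0.985 each), for Ago2 Nupl1 (0.983) and N4bp2 (0.982), and for Mtmr3 Hcfc1 (0.976) and Ap3d1 (0.974). These values include the differences between the 3 systems, and similarity within a system was not examined.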

How the data were processed

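RNA of 29 libraries in 6 groups was sequenced by the authors. The deposited values are raw counts per Ensembl gene, in 1 table per experiment; per the submitters' processing notes they were made with bcl2fastq 2.20.2, FastQC 0.11.5, STAR 2.5.2b (mm10) and featureCounts 1.5.1. The annotation release and strand setting are not given in the sources used here. Overlapping exons can therefore lose or share reads, as the 998 exon bases that Fgfr3 shares with G630022F23Rik on the opposite strand and the 281 that Smarca5 shares with Gm45872.

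Each table was fitted whole with edgeR 4.0.16 (quasi-likelihood test, TMM factors, filterByExpr, two-sided, Benjamini-Hochberg adjustment over all genes tested). Thresholds were those of the study for the PFC and co-cultures, with 0.1 and 0.1 for microglia. CPM are TMM-scaled, and SE and 95% intervals are from the same fit. Differences between experiments used a model of 6 groups, and levels used the sc-control groups. RPKM used the exon length of GENCODE M21. Symbols were given to 48349 of 48709 identifiers, and Mir100hg of the host list matched none. Scripts were tested on simulated counts. Alternatives were DESeq2 1.42.0, RLE factors, no filter, 1 RUVs factor, lane, replicate block, removal of a loess length trend and leaving out each library. No 2 libraries agreed within sampling noise (lowest chi-square per degree of freedom 1.44).

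The 9 targets, the gene lists and the tests were chosen with earlier results of these data known. Named besides the targets were up to 5 called genes of each list with the smallest p, the hosts of the family, and the 2 genes most alike in pattern to each target over all libraries with a mean of at least 1 CPM in each table; further names are marked where they occur. Counting error was not separated from the rest of the spread between libraries, and the SE and intervals hold both. It need not be small for targets at low levels, such as Fgfr3 in microglia.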

Additional observations from a re-analysis of the deposited data

Results flagged for a closer look

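Trib2 stood out because its effect differed between experiments. The log2FC in the PFC minus that in the co-cultures was -0.46 (adjusted p = 0.0301). The PFC value was -0.49 and the co-culture value -0.03, and 3 of 3 treated PFC libraries and 5 of 7 treated co-cultures were below the mean of their controls.

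Of 36 groups of 4 to 8 libraries examined for a library far from the others, 1 had one. The sc-control co-culture 5 was lowest for Ctdspl, at 18.4 CPM beside 18.8 to 19.2 in the other 7 controls. Chance gives about 1 such group in 20.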

How the results depend on the processing

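No target was called higher under any alternative in the PFC, microglia or co-cultures, nor with any library left out. The number called lower in the PFC was 0, and 1 with no filter on low counts or with the RUVs factor. In microglia it was 0, and 2 with the replicate block. In the co-cultures it was 1, then 2 with no filter or the RUVs factor, and 0 with the length trend removed, with the replicate block or with both. Targets with a lower effect in the PFC than in microglia numbered 0, and 1 by DESeq2 or with no filter. Between microglia and co-cultures under sc-control, 5 targets were higher and 2 lower with the length trend removed, instead of 3 and 6. Leaving out 1 library gave 0 to 0 in the PFC, 0 to 2 in microglia and 1 to 2 in the co-cultures called lower, 0 to 1 for the effect in PFC minus microglia and 0 to 2 for PFC minus co-culture.

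The labels do not say that a replicate number marks a shared batch. Deviations of same-numbered libraries from their group means had correlations of 0.06 and -0.32 in the PFC, -0.09 and -0.05 in microglia and -0.02 to 0.05 in the co-cultures. With so few pairs these cannot decide whether a number marks a batch. The block used only libraries whose number occurs in both groups, and so fewer libraries. With it Ago2 went to -0.10 (adjusted p = 0.183) in the co-cultures, and in microglia Ago2 (-0.15) and Bmpr2 (-0.14) were called.

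Log2 values that turned sign were close to 0 after the turn, apart from some level contrasts and Mir99ahg in the co-cultures. In the main fit some had been further from 0, such as Smarca5 in the PFC (-0.18) and Igf1r in the co-cultures (-0.07). In the PFC, Mtor was -8.44e-05 with no filter, -0.010 with RUVs, -0.069 with the replicate block and -0.072 with block and length trend removed. Igf1r was 0.0060 with the length trend removed, and Smarca5 0.010 with the block and 0.0052 with block and length. Ctdspl was -0.0094 by DESeq2, -0.0040 with RLE factors, -0.016 with no filter, -0.0040 with RUVs, -0.011 with the block and -0.016 with block and length. In microglia, Smarca5 was 0.021 with block and length, and Mtmr3 -0.023 with the block. In the co-cultures, Igf1r was 0.029 with block and length, Fgfr3 0.0011 with RUVs, 0.0094 with length, 0.0017 with the block and 0.013 with both, and Mir99ahg 0.021, 0.11 and 0.16 with length, block and both. Of the levels, Mtor PFC minus microglia was -0.012 with length removed, and Bmpr2 there 0.0059 by DESeq2 and 0.00061 with RLE factors. Igf1r, Ago2 and Bmpr2 microglia minus co-culture were 0.13, 0.57 and 0.030 with length removed.

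With 1 library left out, the log2 values of results that turned sign ran from -0.036 to 0.056 (Mtor), -0.080 to 0.0093 (Igf1r), -0.015 to 0.013 (Ctdspl) and -0.043 to 0.19 (Mir99ahg) in the PFC. They ran from -0.064 to 0.015 (Fgfr3), -0.026 to 0.077 (Trib2) and -0.011 to 0.029 (Mtmr3) in microglia, and from -0.017 to 0.0092 (Fgfr3), -0.065 to 0.024 (Mir99ahg) and -0.011 to 0.036 (Spaca6) in the co-cultures. The difference of the Ago2 effect between PFC and co-culture ran from -0.16 to 0.0045, and the Bmpr2 level in PFC minus microglia from -0.091 to 0.074. For these and the other results the cause was not tested.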
